A study of Homo sapiens with 4 samples.

Results

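Eukaryotic initiation factor 3 (eIF3) is the largest of the translation initiation factors. It binds the small ribosomal subunit, takes part in assembling the 43S preinitiation complex with the initiator tRNA, and helps to bring this complex to the mRNA. EIF3A and EIF3C form the scaffold of its core together with other PCI and MPN domain subunits, and EIF3B holds EIF3G and EIF3I at its side. The study asked what the RNA methyltransferase METTL16 does in translation in liver cancer cells, and the comparison here asks how much mRNA of each eIF3 subunit gene the cells held with and without an edit of METTL16. Protein was not measured in these libraries. The genes were chosen by their names, EIF3A to EIF3I with the second copy EIF3CL, and all 10 were found among the 18806 gene symbols measured.

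RNA was compared between 2 libraries from Huh7 cells given a non-targeting control guide, sgNS, and 2 libraries from Huh7 cells given a guide against METTL16 (METTL16 KO, called a knockdown in the sample labels). Huh7 is a line from a human hepatocellular carcinoma. According to the methods, Cas9-expressing single clones received their guides by lentivirus and were selected with hygromycin B. This is described for the edited lines in general, and the clone behind these 4 libraries is not named. That both groups share clone and selection is thus likely from the methods but not stated. The labels do not say whether the 2 METTL16 KO libraries carry the same guide. The methods speak of biological replicates without saying whether these were transduced separately. The p-values thus rest on the spread between these libraries, which may be technical in part. The test used, limma, also draws the spread of each gene towards that of genes at a similar level.

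Values are TPM, the share of a gene among all transcripts after division by transcript length, scaled to sum to 1000000 in each library. Levels of different genes can thus be compared, but read counts cannot be had from them, the depth is unknown and no counting error is given. Changes were tested with limma on log2(TPM + 0.1) in 11971 genes whose mean reached 1 TPM, and an adjusted p under 0.05 (Benjamini-Hochberg over all 11971 genes) was called a change. The median log2 fold change of all these genes was 0.16, so a subunit near 0.16 moved like the typical gene. With median-ratio scaling, which sets the median gene close to 0, that median was -0.0016. All 8 hepatocyte and hepatoma markers looked for were at 1 TPM or more in every library, with a summed level of 17691 and 17769 TPM in sgNS against 30035 and 29623 TPM in METTL16 KO. Most of that difference lay in AFP, at 1737 and 1793 TPM in sgNS against 10387 and 10197 TPM in METTL16 KO, whereas APOB and TF were lower in both METTL16 KO libraries. The 100 genes with the most TPM took 32.6% and 32.8% of the total in sgNS against 28.6% and 28.7% in METTL16 KO, and the part of either shift in the subunit values was not tested. The 3 fibroblast markers summed to at most 1.86 TPM, the 3 endothelial markers to at most 5.15 TPM and the 3 leukocyte markers to at most 9.67 TPM, most of it CD68. METTL16 mRNA stood at 26.3 and 25.1 TPM in sgNS against 17.6 and 18.8 TPM in METTL16 KO, and the groups did not overlap (log2 fold change -0.50, standard error, SE, 0.062, adjusted p = 2.4e-05). A Cas9 edit need not remove the transcript, and in bulk RNA fewer cells with a transcript and less of it per cell cannot be told apart.

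The eIF3 mRNAs did not move as 1 block. On the TPM scale, 3 of the 10 members were lower in METTL16 KO (EIF3E, EIF3D and EIF3H), 6 were higher (EIF3B, EIF3G, EIF3CL, EIF3I, EIF3A and EIF3C) and EIF3F did not pass. Among all genes tested, 25.6% were called lower and 50.1% higher, and both counts of members lie near this background. In 9 of the 10 members the groups did not overlap, as in 87.4% of all genes. EIF3C is listed at a few TPM at most and reached the minimum mean only through the METTL16 KO libraries, and without it 3 of 9 members were lower and 5 higher. With METTL16 KO replicate 2 left out, 1 of the 10 was lower (EIF3E), and with METTL16 KO replicate 1 left out 2 were lower and 4 higher, since EIF3A and EIF3I then missed the threshold. The median log2 fold change of the 9 members without EIF3C was 0.14, beside 0.16 for all genes. After median-ratio scaling 4 of the 10 members were lower and 3 higher, beside 36.5% and 36.4% of all genes. EIF3E, EIF3D and EIF3H were lower and EIF3B, EIF3G and EIF3C higher under both scalings, whereas EIF3A, EIF3CL, EIF3I and EIF3F turned from above to below 0.

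**Figure D1:**
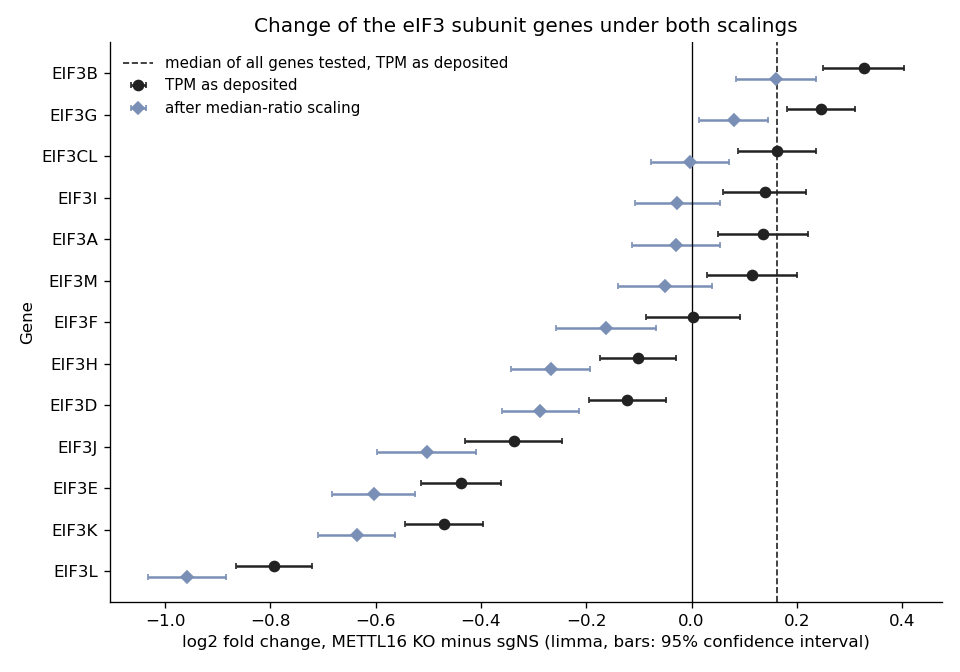
Log2 fold change (x axis, METTL16 KO minus sgNS) of 13 eIF3 subunit genes (y axis), from TPM as deposited (black circles) and after median-ratio scaling (blue diamonds), with 95% confidence intervals from limma as bars and the median of all genes at 0.16 as a dashed line. EIF3C, at 2.49, is left out of the plot. EIF3L lies lowest at -0.79 and EIF3B highest at 0.33, while EIF3A, EIF3I and EIF3CL lie next to the dashed line.

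EIF3A, the largest subunit and part of the scaffold on which the complex is built, is encoded on the minus strand of chromosome 10 (GRCh38) between 119033670 and 119080817. Its mRNA stood at 108 and 106 TPM in sgNS against 119 and 116 TPM in METTL16 KO. Both METTL16 KO libraries lay above both sgNS libraries. The log2 fold change was 0.14 (SE 0.038, 95% confidence interval 0.051 to 0.22, adjusted p = 0.0077), so that its difference from the median gene was -0.027. This rise depended on the scaling. With median-ratio scaling the log2 fold change was -0.030 (95% confidence interval -0.11 to 0.054, adjusted p = 0.50) and with quantile normalization it was 0.034 (adjusted p = 0.43). It also failed the threshold without METTL16 KO replicate 1, with 0.11 and an adjusted p of 0.10.

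EIF3B, which holds EIF3G and EIF3I and carries an RNA recognition motif and a propeller of WD repeats, lies on the plus strand of chromosome 7 from 2354086 to 2380745. It stood at 304 and 288 TPM in sgNS against 371 and 372 TPM in METTL16 KO. The groups did not overlap, and the METTL16 KO libraries were far closer to each other than the sgNS libraries. The log2 fold change was 0.33 (SE 0.035, 95% confidence interval 0.25 to 0.40, adjusted p = 7.6e-06), a mean rise of 25.4%. It stayed above 0 and past the threshold in all 13 alternatives run for it, between 0.16 with median-ratio scaling and 0.37. Relative to EIF3A within the same library, EIF3B had ratios of 2.83 and 2.70 in sgNS against 3.10 and 3.21 in METTL16 KO, a comparison that no scaling of a whole library can move.

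EIF3G and EIF3I sit on EIF3B in the complex. EIF3G, an RNA recognition motif protein whose gene lies on the minus strand of chromosome 19 from 10115014 to 10119918, was the most abundant subunit mRNA in both groups. Its levels were 399 and 393 TPM in sgNS against 470.5 and 468 TPM in METTL16 KO. That rise of 0.25 on the log2 scale (SE 0.029, adjusted p = 1.8e-05) shrank to 0.080 with median-ratio scaling, where it still passed with an adjusted p of 0.030. EIF3I, a WD repeat protein encoded on the plus strand of chromosome 1 from 32221077 to 32245397, stood at 138 and 142 TPM in sgNS against 155 and 154 TPM in METTL16 KO. Its log2 fold change of 0.14 (adjusted p = 0.0046) was like that of EIF3A, and it was -0.027 with median-ratio scaling (adjusted p = 0.52) and missed the threshold without METTL16 KO replicate 1 (adjusted p = 0.057). Within a library, the ratio of EIF3B to EIF3I was 2.20 and 2.03 in sgNS and 2.40 and 2.42 in METTL16 KO. On the TPM scale all 3 mRNAs of this module were thus listed higher in METTL16 KO, as was the median gene (0.16). EIF3I lay below that median and changed sign after median-ratio scaling, without a call in that fit.

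**Figure D2:**
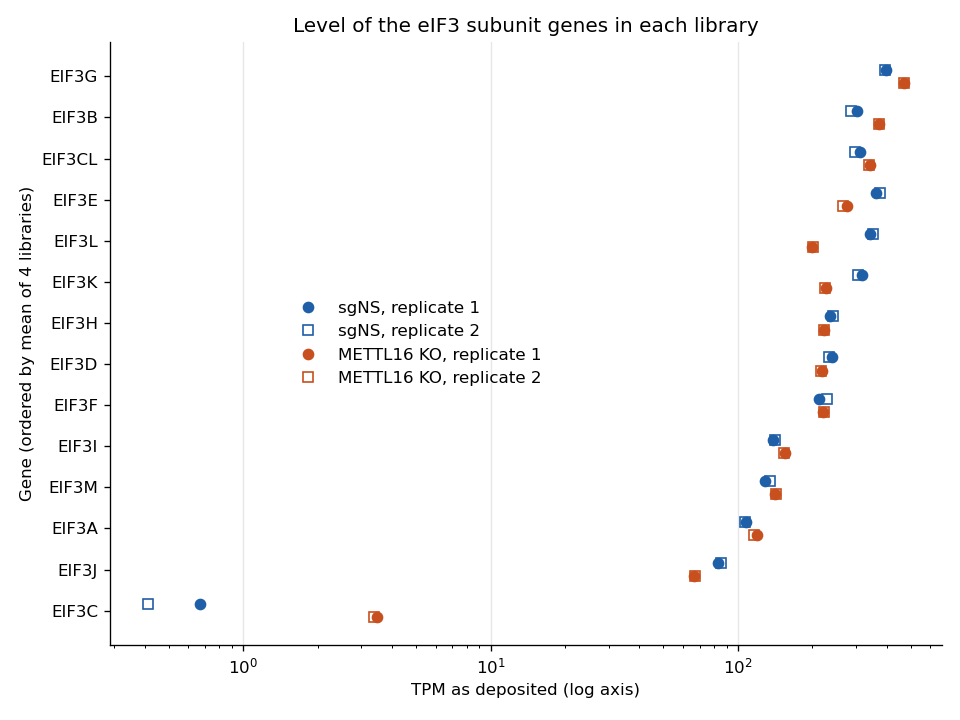
TPM on a log axis (x axis) of the 14 eIF3 genes (y axis, ordered by the mean of 4 libraries), with sgNS in blue and METTL16 KO in orange, circles for replicate 1 and open squares for replicate 2. Of the 14 genes, 13 lie between 66.6 and 470.5 TPM, and EIF3C lies apart, at 0.41 and 0.67 TPM in sgNS and 3.46 and 3.37 TPM in METTL16 KO.

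EIF3C, a PCI domain subunit of the scaffold, is encoded by a pair of nearly identical genes on chromosome 16, EIF3C on the plus strand from 28688558 to 28735727 and EIF3CL on the minus strand from 28379579 to 28403841. The coding sequences of their canonical transcripts in GENCODE have 2739 and 2742 bases, and 2739 of the 2742 aligned positions are identical, with 0 mismatches and 1 gap of 3 bases. The stretch around that gap is shown because it holds the whole coding difference between the genes. It covers bases 851 to 890 of the EIF3C coding sequence and 851 to 893 of that of EIF3CL, counted from the first base of the start codon, and capitals mark the 3 extra bases of EIF3CL, which could be placed at any GAG of the repeat.
EIF3C: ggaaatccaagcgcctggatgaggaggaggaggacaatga
EIF3CL: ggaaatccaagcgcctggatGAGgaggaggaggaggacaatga
Of the windows of 1 read length along the EIF3C transcript, 96.9% occur unchanged in EIF3CL. Most reads from the pair therefore fit both genes, and how they are divided rests on the authors' quantification.

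EIF3CL stood at 311 and 297 TPM in sgNS against 342 and 338 TPM in METTL16 KO, with a log2 fold change of 0.16 (SE 0.034, adjusted p = 0.0011). EIF3C stood at 0.67 and 0.41 TPM in sgNS against 3.46 and 3.37 TPM in METTL16 KO (log2 fold change 2.49, SE 0.24). It reached the minimum mean only through the METTL16 KO libraries, so its call carries no weight. No other member that passed moved by 1 or more on the log2 scale, which 11.5% of all 11971 genes tested did while passing. Its share of the pair was 0.215% and 0.138% in sgNS and 1.00% and 0.989% in METTL16 KO, so nearly all of the signal was given to EIF3CL in every library. The sum of both was 311 and 297 TPM in sgNS against 346 and 341 TPM in METTL16 KO. Fitted in place of the pair, the sum had a log2 fold change of 0.17 (SE 0.034, adjusted p = 7.2e-04), close to the median gene, and of 0.0087 with median-ratio scaling (adjusted p = 0.82). The sum is the value to read for this subunit, since the split between the copies cannot be checked from TPM values.

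EIF3E, a PCI domain subunit, showed the largest fall among the members. Its gene lies on the minus strand of chromosome 8 from 108162787 to 108443496. It stood at 362 and 375 TPM in sgNS against 277 and 267 TPM in METTL16 KO, with a log2 fold change of -0.44 (SE 0.035, 95% confidence interval -0.51 to -0.36, adjusted p = 7.2e-07). Mean TPM fell by 26.2%. All 13 alternatives kept it below 0 and past the threshold, from -0.60 with median-ratio scaling to -0.41. In sgNS, EIF3E mRNA was above EIF3B mRNA, with ratios of 1.19 and 1.30, while in METTL16 KO it was below, with ratios of 0.748 and 0.718. Of its read-length windows, 8.95% also occur in 1 other annotated gene.

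EIF3D, a subunit that can bind the cap of certain mRNAs, is encoded on the minus strand of chromosome 22 from 36510855 to 36529184. Its levels were 240 and 234 TPM in sgNS against 219 and 216 TPM in METTL16 KO. The groups did not overlap, and the log2 fold change was -0.12 (SE 0.033, adjusted p = 0.0063) or -0.29 with median-ratio scaling. On the TPM scale the call was lost without METTL16 KO replicate 2, where the adjusted p was 0.074.

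EIF3F and EIF3H are the MPN domain subunits of the core. EIF3H, on the minus strand of chromosome 8 from 116642130 to 116766925, stood at 237 and 242 TPM in sgNS against 223 and 223 TPM in METTL16 KO. The change on the log2 scale was -0.10 (SE 0.033, adjusted p = 0.015), or -0.27 with median-ratio scaling, and on the TPM scale it did not pass without METTL16 KO replicate 1 (adjusted p = 0.099) or replicate 2 (adjusted p = 0.097). EIF3F, on the plus strand of chromosome 11 from 7970251 to 8001862, stood at 213 and 230 TPM in sgNS against 221 and 222 TPM in METTL16 KO. The METTL16 KO libraries lay between the sgNS libraries, and the log2 fold change was 0.0029 (95% confidence interval -0.086 to 0.092, adjusted p = 0.95). With median-ratio scaling EIF3F was at -0.16 (adjusted p = 0.0055), and in the fits that left out 1 library it ran from -0.051 without sgNS replicate 1 to 0.057 without sgNS replicate 2. Of the EIF3F windows, 4.53% are shared with the pseudogene EIF3FP3.

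The remaining 4 subunits, EIF3J, EIF3K, EIF3L and EIF3M, held the largest falls of the complex. EIF3L, a PCI domain subunit that pairs with EIF3K at the edge of the complex next to EIF3E, stood at 344 and 353 TPM in sgNS against 200.3 and 202 TPM in METTL16 KO. The change on the log2 scale was -0.79 (SE 0.033, adjusted p = 4.5e-09). Of its read-length windows, 49.98% also occur in a noncoding transcript on the same strand of its own locus. EIF3K stood at 319 and 307 TPM in sgNS against 227 and 225 TPM in METTL16 KO (log2 fold change -0.47, SE 0.033, adjusted p = 3.1e-07). For both, each METTL16 KO library lay well below each sgNS library. EIF3J, a loosely bound subunit at the decoding site of the small ribosomal subunit, stood at 83.2 and 85.8 TPM in sgNS against 66.6 and 67.1 TPM in METTL16 KO (log2 fold change -0.34, adjusted p = 2.3e-05). EIF3M, another PCI domain subunit, went the other way, from 128 and 134 TPM to 141 and 143 TPM (log2 fold change 0.11, adjusted p = 0.019), but was at -0.051 with median-ratio scaling (adjusted p = 0.28). Over the 13 genes without EIF3C, 6 were lower and 6 higher on the TPM scale, beside 25.6% and 50.1% of all genes, and 11 of 13 lay below the median gene. After median-ratio scaling 7 of the 13 were lower and 2 higher, beside 36.5% and 36.4% of all genes.

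The order of the levels changed with these shifts. In sgNS the members ran from EIF3G through EIF3E, EIF3CL, EIF3B, EIF3H, EIF3D, EIF3F and EIF3I to EIF3A, with EIF3C last. The ranges of EIF3CL and EIF3B overlapped, as did those of EIF3H and EIF3D, so these neighbours did not differ beyond their spread. In METTL16 KO the order was EIF3G, EIF3B, EIF3CL, EIF3E, EIF3H, EIF3F, EIF3D, EIF3I, EIF3A and EIF3C, and no neighbours overlapped. EIF3E thus moved from the place behind EIF3G to that behind EIF3CL, whereas EIF3I and EIF3A kept theirs. Among the 14 genes, EIF3L went from place 3 in sgNS, behind EIF3E, to place 9 in METTL16 KO, behind EIF3D.

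Within each library, each subunit was also set against the geometric mean of the 13 subunits, with EIF3C and EIF3CL summed, which removes any factor common to a library. Relative to that mean, EIF3B rose from 0.42 to 0.84 on the log2 scale (group means), a difference of 0.41, with an SD of at most 0.063 within a group. EIF3G gained 0.33, the EIF3C pair 0.26, EIF3I 0.23, EIF3A 0.22 and EIF3M 0.20. On the other side, EIF3L dropped by 0.71, EIF3K dropped by 0.38, EIF3E dropped by 0.35 and EIF3J dropped by 0.25. EIF3F, EIF3D and EIF3H changed by at most 0.089 between the groups against this reference. The subunits that dropped most, EIF3L, EIF3K, EIF3E and EIF3J, enter it. These are descriptions with 2 libraries a group, for which an exact permutation test cannot give a p under 0.33. A narrower reference held the summed pair and the 8 members besides it, these genes included, without EIF3J to EIF3M. Against it EIF3A gained 0.096, EIF3E dropped by 0.48, EIF3D dropped by 0.16 and EIF3H dropped by 0.14. Against the 10 member genes as listed, where the large rise of EIF3C shifts the mean, EIF3A dropped by 0.17. The sum of all 13 subunits was 3185 and 3188 TPM in sgNS against 3036 and 3016 TPM in METTL16 KO, a log2 ratio of the means of -0.075.

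**Figure D3:**
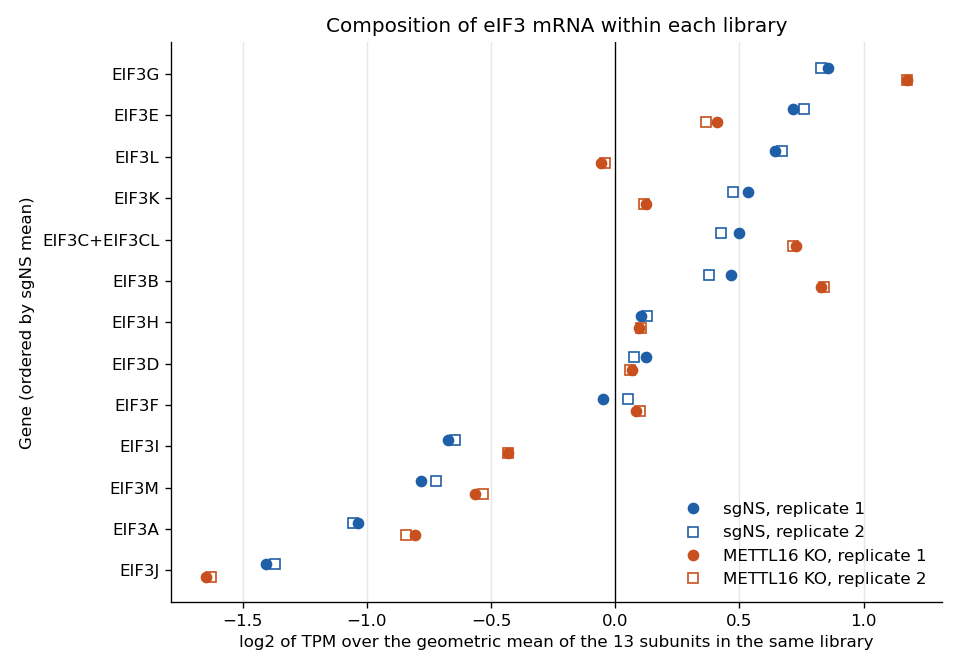
Log2 of TPM over the geometric mean of the 13 eIF3 subunits in the same library (x axis) for each subunit (y axis, ordered by the sgNS mean), with sgNS in blue and METTL16 KO in orange, circles for replicate 1 and open squares for replicate 2. EIF3L moves from 0.66 to -0.050 and EIF3B from 0.42 to 0.84 (group means), while EIF3H and EIF3D change by -0.016 and -0.035 against this reference.

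The starts of the subunit mRNAs were looked at because many mRNAs of the translation machinery begin with a terminal oligopyrimidine (TOP) tract, a C followed by an unbroken run of pyrimidines. RefSeq promoter windows on GRCh38.p14 were read for 8 subunit genes. No window was read for EIF3A, EIF3CL, EIF3E, EIF3G, EIF3H and EIF3L, which need not mean that the reference lacks one. Their starts are unknown here, and the subunit count covers the 8 genes only. The unread genes include EIF3L, with the largest fall of the complex, and EIF3E, with the largest fall among the members. The count thus does not stand for the whole complex. A start was counted as TOP when its first base was C and the run of C or T from there had at least 5 bases, read on the strand of the gene. EIF3D, EIF3F, EIF3K and EIF3M met this, 4 of 8, beside 5.19% of the 13632 windows of genes tested. The 30 bases around each of these starts, 10 before it and 20 from it on, are shown with the tract in capitals, at chr22:36529147-36529176 (minus strand), chr11:7987327-7987356, chr19:38619178-38619207 and chr11:32583821-32583850 (plus strand).
EIF3D: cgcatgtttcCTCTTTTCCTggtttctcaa
EIF3F: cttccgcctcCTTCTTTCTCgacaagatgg
EIF3K: tttccaccacCTCTTCCTgttcccgtcctt
EIF3M: gcccagttccCTTTTCCggtcggcgtggtc
EIF3B and EIF3I, shown for contrast at chr7:2354817-2354846 and chr1:32222397-32222426 (plus strand), have no such start.
EIF3B: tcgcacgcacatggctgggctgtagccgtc
EIF3I: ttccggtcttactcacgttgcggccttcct
On the TPM scale the log2 fold changes of the 4 genes with a TOP start were -0.47 for EIF3K, -0.12 for EIF3D, 0.0029 for EIF3F, which did not pass, and 0.11 for EIF3M. All 4 lay below the median gene, and with median-ratio scaling all 4 were below 0, at -0.64 for EIF3K, -0.29 for EIF3D, -0.16 for EIF3F and -0.051 for EIF3M, of which EIF3M did not pass (adjusted p = 0.28). EIF3J and EIF3C also lack such a start in these windows. Of the genes without one, EIF3J (-0.34, or -0.50 with median-ratio scaling) and EIF3I (0.14, or -0.027) also lay below the median gene. EIF3B (0.33, or 0.16) and EIF3C lay above it. Over the 13 subunit genes without EIF3C, 11 lay below the median gene, and a link of the change to the start was not tested. The match is to annotated starts and was not measured in these cells.

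Other factors that act with eIF3 were read from lists of fixed membership. Of 9 factors of the 43S complex and of subunit joining, 1 was lower and 4 were higher, beside 25.6% and 50.1% of all genes. Their median log2 fold change was 0.015. After median-ratio scaling 5 were lower and 1 higher, beside 36.5% and 36.4% of all genes. The lower one on the TPM scale was EIF2S3, the gamma subunit of the factor that carries the initiator tRNA. It went from 143 and 147 TPM to 68.0 and 68.4 TPM (log2 fold change -1.09, adjusted p = 1.7e-09). EIF1B, a relative of the start codon selection factor EIF1, rose most, with a log2 fold change of 0.48. Those of EIF2S2, the beta subunit of that tRNA carrier, and of EIF5B, a GTPase of subunit joining, were 0.23 each. EIF1, EIF1AX, EIF2S1 and ABCE1 did not pass, with log2 fold changes from 0.0021 to 0.015.

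Among 13 factors of the cap complex eIF4F and of mRNA binding, 4 were lower and 6 higher (median 0.035), beside 25.6% and 50.1% of all genes. PABPC1 and PABPC4, which bind the poly(A) tail, rose by 0.74 and 0.64 on the log2 scale, and EIF4EBP2, an inhibitor of the cap-binding protein EIF4E, rose by 0.37. EIF4G3, a scaffold of eIF4F, was lower (log2 fold change -0.87), as were EIF4E (-0.39) and EIF4B, a helper of the eIF4A helicase (-0.26). In eIF2B, which reloads the tRNA carrier with GTP, EIF2B4 and EIF2B5 were lower (-0.42 and -0.55) and EIF2B1, EIF2B2 and EIF2B3 higher (0.24, 0.45 and 0.32). After median-ratio scaling EIF2B1 did not pass (log2 fold change 0.077, adjusted p = 0.12). In that fit 2 of the 5 were lower and 2 higher, beside 36.5% and 36.4% of all genes. Both directions were thus called in eIF2B as in eIF3, and among all genes too.

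The proteasome lid and the COP9 signalosome are built from PCI and MPN domain proteins like the eIF3 core. In the lid, 4 of the 9 genes were lower and 2 higher (median -0.065), beside 25.6% and 50.1% of all genes. The largest falls were in PSMD7 (-0.52), PSMD11 (-0.39) and PSMD14 (-0.22), and SHFM1 (0.37) and PSMD8 (0.25) rose. In the signalosome, 2 of 9 were lower, COPS5 (-0.80), its catalytic subunit, and COPS2 (-0.16), and 6 were higher (median 0.16), led by COPS7B (0.50), COPS8 (0.33) and GPS1 (0.25). After median-ratio scaling 2 signalosome genes were lower and 2 higher, beside 36.5% and 36.4% of all genes. Of 6 factors tied to eIF3 by binding or regulation, METTL16 (-0.50) and METTL3 (-1.16) were lower, and MTOR (0.64) and RPS6KB1 (0.42), kinases that act on initiation, were higher, while DHX29 and PDCD4 did not pass, with log2 fold changes of 0.019 and -0.049.

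**Figure D4:**
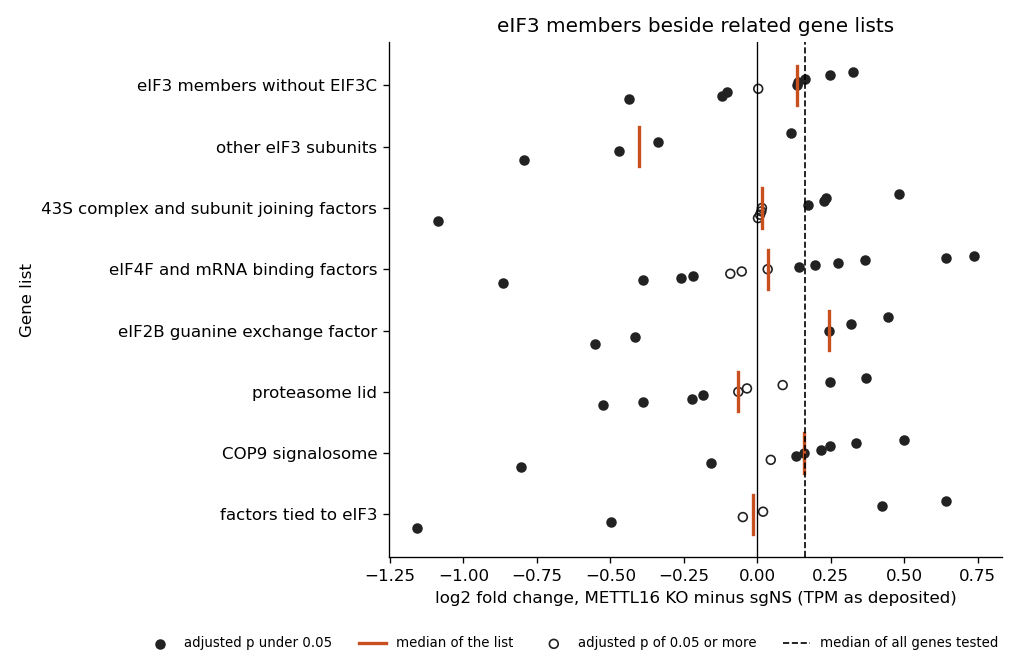
Log2 fold change (x axis, METTL16 KO minus sgNS, TPM as deposited) of each gene (points, filled at an adjusted p under 0.05) in the eIF3 members without EIF3C and in 7 related lists (y axis), with the median of each list as an orange bar and the median of all genes, 0.16, as a dashed line. The 9 members span -0.44 to 0.33, and the other eIF3 subunits have the lowest list median, -0.40.

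The genes closest to EIF3A over the 4 values of log2(TPM + 0.1), by Euclidean distance among all genes tested, were FNDC3B (0.053), SUMF2 (0.058) and MRPL20 (0.068). FNDC3B, for example, stood at 109 and 109 TPM in sgNS against 121 and 117 TPM in METTL16 KO. Closest to EIF3B were HNRNPAB (0.15), KARS (0.15) and CHKA (0.17). This likeness covers level and change in 4 libraries only.

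Some exons of subunit genes overlap those of a neighbour on the opposite strand in GENCODE, among them 61 bases of EIF3A with NANOS1, 116 bases of EIF3G with P2RY11, 110 bases of EIF3H with UTP23 and 460 bases of EIF3L with ANKRD54. The kit marks strand, but whether the counting used it is not given in the sources used here. How far this bears on the levels was not tested.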

How the data were processed

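RNA of 2 sgNS and 2 METTL16 KO libraries of Huh7 cells was analysed, grouped by sample title. The labels name both a ribosomal RNA depletion and a stranded mRNA kit. According to methods and processing notes, the authors used Cutadapt for trimming of paired reads of 101 bases, STAR for mapping (GRCh38) and RSEM for gene values, with versions and annotation not given in the sources used here. The deposited values are TPM per gene symbol (named RPKM in the methods, but each library sums to 1000000). No column was left out.

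Tests used limma 3.58.1 in R 4.3.3 (lmFit, eBayes with trend) on log2(TPM + 0.1) across all genes with a mean of at least 1 TPM, two-sided, and the code was checked on simulated data with known answers. Median-ratio factors came from those genes. The members and gene lists were chosen with earlier results of these data known. Named are all EIF3 genes, METTL16, up to 3 genes a list with the largest called change in each direction, the 3 genes closest to EIF3A and to EIF3B, and, chosen after their values were seen, the genes that did not pass in the 43S list and among the factors tied to eIF3. The list SHFM1/SEM1 entry is 1 gene, so that the lid has 9. Positions, exons and shared windows of 101 bases are from GENCODE release 44, promoter windows from RefSeq. Alternatives were other pseudocounts (1, 0.01), filters (all genes above 0, mean of 5 TPM), scalings, models, a replicate block, a fold threshold and leaving out each library. Those added after the data were seen are the counts without EIF3C and the ratios with EIF3C and EIF3CL summed. Python 3.11.15, Biopython 1.88 and matplotlib 3.10.9 were used.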

Additional observations from a re-analysis of the deposited data

How the results depend on the processing

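EIF3B, EIF3E and EIF3G kept their direction and passed in all 13 alternatives run for each. EIF3C entered the tests only through its METTL16 KO values, so its calls say nothing about stability. Median-ratio scaling put EIF3A at -0.030, EIF3CL at -0.0032, EIF3I at -0.027, EIF3F at -0.16 and the sum of EIF3C and EIF3CL at 0.0087, and quantile normalization put EIF3A at 0.034 and EIF3F at -0.023. The median gene lies at 0.16 on the TPM scale and near 0 after either scaling. In the unmoderated model, with 2 residual degrees of freedom, EIF3A (0.14, adjusted p = 0.056) and the sum (0.17, adjusted p = 0.066) missed the threshold. The adjusted p-values of EIF3A ran from 0.0061 to 0.50 over its alternatives and those of the sum from 1.0e-05 to 0.82. Leaving out 1 library, with the lone sample assumed to vary like the others, gave 0.11 to 0.16 for EIF3A and -0.051 to 0.057 for EIF3F, and 1 (without METTL16 KO replicate 2) to 3 lower members. Against 3 lower and 6 higher members, limma without trend gave 1 lower, median-ratio scaling 3 higher, and a fold threshold 0 lower and 1 higher. EIF3D and EIF3H lost their call without trend (adjusted p = 0.063 and 0.094), EIF3D and EIF3CL in the unmoderated model (0.051 and 0.071), and EIF3I with quantile normalization (0.15). The cause was not tested.

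Median-ratio scaling and quantile normalization changed counts in the lists as well. The 43S list had 5 and 2 lower and 1 and 2 higher genes, the COP9 signalosome 2 and 3 higher, the factors tied to eIF3 4 and 4 lower, and the other eIF3 subunits 0 and 0 higher. Median-ratio scaling gave 7 lower genes in the eIF4F list, and with it 36.5% of all genes were lower and 36.4% higher. With the replicate number as a block, 3 members were lower and 6 higher, and no call of a member changed. Deviations of same-numbered libraries had a correlation of -0.044 across genes. With 2 libraries a group this cannot decide whether same-numbered libraries were handled together. TPM values give no depth, so no limit from counting can be set.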
